A study of Homo sapiens with 23 samples.

Results

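The 60 genes described here had a higher nascent transcription signal than vehicle-treated cells at each of 5 times after TRPS1 degradation, and they were chosen for exactly that. The cells were Clone 28 of T47D, a breast cancer line of luminal type that expresses the estrogen receptor, with a degron tag at the endogenous TRPS1 gene. Per the study's methods, some of the genomic copies of TRPS1 in this clone are knocked out and the tagged protein is the only TRPS1 expressed, so all groups, controls included, share that background and stand for a single clone. Cells received the vehicle DMSO (0.1%, 4 libraries) or 50 nM dTAG-13 with 50 nM dTAG-V-1, called dTAG here, for 0.5, 1, 2 or 4 h (4 libraries each) or 24 h (3 libraries, replicates 2 to 4). The assay was PRO-seq, precision run-on sequencing, in which engaged RNA polymerases add a labelled nucleotide, so that reads count polymerases on a gene and not its standing mRNA.

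The members were selected on their CPM with dTAG relative to DMSO, CPM being counts scaled to a common library size with TMM factors, and the mean CPM of each dTAG group was divided by the mean CPM of the DMSO group. Of 14148 genes with a mean count of 100 or more per library, 13899 remained after ART4, FPR1, ZNF350-AS1, CYP4B1 and symbols starting with LINC were left out. The 60 with the highest minimum of the 5 log2 ratios were taken. The minimum ran from 0.51 for VCAN to 0.21 for SPHK2. The last members were BACH1 at 0.214, SLC25A45 at 0.213 and SPHK2 at 0.212, and the next genes, ENSG00000233928 at 0.211, ABCC13 at 0.211 and RNU1-88P at 0.210, lay just outside, so no gap separates the set from the rest. Before the exclusions, 71 genes had all 5 ratios at or above the lowest member's minimum and 25 had all 5 at or below its negative. All 5 ratios divide by the same 4 DMSO libraries and are not independent of each other.

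TRPS1 is an atypical member of the GATA family of zinc finger proteins. It binds GATA motifs and acts mainly as a transcriptional repressor, and it is highly expressed in luminal breast epithelium. Loss of a repressor can raise transcription of its direct targets within minutes, while later changes can also pass through other regulators, and PRO-seq reads such changes before mRNA levels follow.

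The libraries held 4408544 to 17571616 counts, with a median of 9768427, and the lowest count of any member in any library was 22. TRPS1 itself is degraded as a protein, and its gene lay between 7997 and 11979 CPM over all libraries, so the counts give no check of the depletion. TRPS1 was called at no time without the replicate number as a block and higher at all 5 times with it, by log2 fold changes of 0.13 to 0.28 in the fit without it and with edgeR adjusted p-values of 0.000135 to 0.0558 in the fit with it. All 8 luminal markers examined (ESR1, GATA3, FOXA1, KRT8, KRT18, KRT19, XBP1, EPCAM) were kept after the low-count filter. Among 15 markers of basal cells, fibroblasts, leukocytes and endothelium, 8 were not kept, including KRT5, KRT14, KRT17, DCN, LUM and CDH5 with mean counts under 5 per library. Of the other 7, COL1A1 had 127, CD68 115 and ACTA2 93.6 counts per library on average. MYH11, PTPRC, PECAM1 and VWF had 14.8 to 34.1. None of these 7 was called at any time. Of the 8 luminal markers none was called higher, and GATA3 alone was called lower, at 0.5, 1, 2 and 4 h. With the block, 2, 4, 2, 1 and 1 of the 8 were called lower over the 5 times. Of the genes that are neither members nor neighbours of members, described below, 1.36%, 1.76%, 1.14%, 0.955% and 1.23% were called lower with the block. In bulk libraries, fewer transcribing cells and less transcription per cell cannot be told apart. Libraries with the same replicate number were harvested together within a day, per the study's methods. P-values without the block therefore measure the spread between harvests of a single clone. Those with the block measure the spread that is left once the level of each harvest is taken out. Values per library are given in the order of replicates 1 to 4, and 2 to 4 at 24 h.

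Promoter windows of 4 members are shown because TRPS1 binds GATA motifs. Windows are the 250 bases before the RefSeq start on GRCh38.p14, which was available for 36 members. The GATA hexamers AGATAA, ending also in G as AGATAG, and with T in the first place as TGATAA, ending also in G as TGATAG, were searched on both strands and are in capitals. BFSP2-AS1 (chr3:133456023-133456272, minus strand) held 2, at -198 and -132 from the start. PFKFB1 (chrX:54998790-54999039, minus) and ACSM1 (chr16:20691257-20691506, minus) held 1 each, that of PFKFB1 on the opposite strand, and TP63 (chr3:189631139-189631388, plus) held none. No GENCODE exon lies in these windows, and that of ACSM1 lies within the longer GENCODE span of the gene.
BFSP2-AS1: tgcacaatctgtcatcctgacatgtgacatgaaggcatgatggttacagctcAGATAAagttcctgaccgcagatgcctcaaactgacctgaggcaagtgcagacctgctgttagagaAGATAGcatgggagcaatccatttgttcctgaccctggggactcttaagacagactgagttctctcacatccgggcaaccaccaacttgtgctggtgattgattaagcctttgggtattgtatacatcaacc
PFKFB1: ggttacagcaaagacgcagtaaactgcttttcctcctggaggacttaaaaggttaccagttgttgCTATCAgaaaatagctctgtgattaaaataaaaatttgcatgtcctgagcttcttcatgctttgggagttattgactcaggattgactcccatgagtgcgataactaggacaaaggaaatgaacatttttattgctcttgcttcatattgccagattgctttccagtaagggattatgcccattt
ACSM1: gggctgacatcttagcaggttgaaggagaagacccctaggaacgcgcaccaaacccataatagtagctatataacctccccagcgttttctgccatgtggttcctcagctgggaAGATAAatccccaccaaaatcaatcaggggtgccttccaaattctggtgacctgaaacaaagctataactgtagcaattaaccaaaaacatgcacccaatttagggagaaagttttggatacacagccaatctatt
TP63: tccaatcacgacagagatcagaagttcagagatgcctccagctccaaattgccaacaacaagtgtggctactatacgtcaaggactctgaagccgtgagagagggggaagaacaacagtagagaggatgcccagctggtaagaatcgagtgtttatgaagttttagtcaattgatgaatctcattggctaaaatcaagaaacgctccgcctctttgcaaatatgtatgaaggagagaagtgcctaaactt

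At least 1 GATA hexamer was present in 10 of the 36 member windows (27.8%) and in 22.3% of all 35116 windows. The members were DGKB, BFSP2-AS1, P2RY10, PFKFB1, BATF, ACSM1, KLHL13, ZNF385B, EHF and SLC25A45. BFSP2-AS1 and P2RY10 held 2. The estrogen receptor half-site AGGTCA was present, on either strand, in 6 members (GSTM5, BFSP2-AS1, ACSM1, ZNF614, AGPS and FSIP1; 16.7%) and in 12.1% of all windows. These are matches of letters near annotated starts and say nothing of sites farther away.

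By annotation, the set held 36 protein-coding genes, 23 long non-coding RNAs and 1 pseudogene, CPHL1P. Long non-coding RNAs made up 38.3% of the members and 13.0% of the other genes the rule could choose. Gene spans were longer, with a median of 63.0 kb against 35.2 kb, and 26 members spanned more than 100 kb. In DMSO the members carried a median of 0.64 CPM per kb of span, against 1.24 CPM per kb in the other genes. The coefficient of variation over the 4 DMSO libraries had a median of 8.04% in the members and 6.78% in the other genes. The rule uses the DMSO mean and leaves out LINC symbols, so these contrasts describe the set as chosen.

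**Figure D1:**
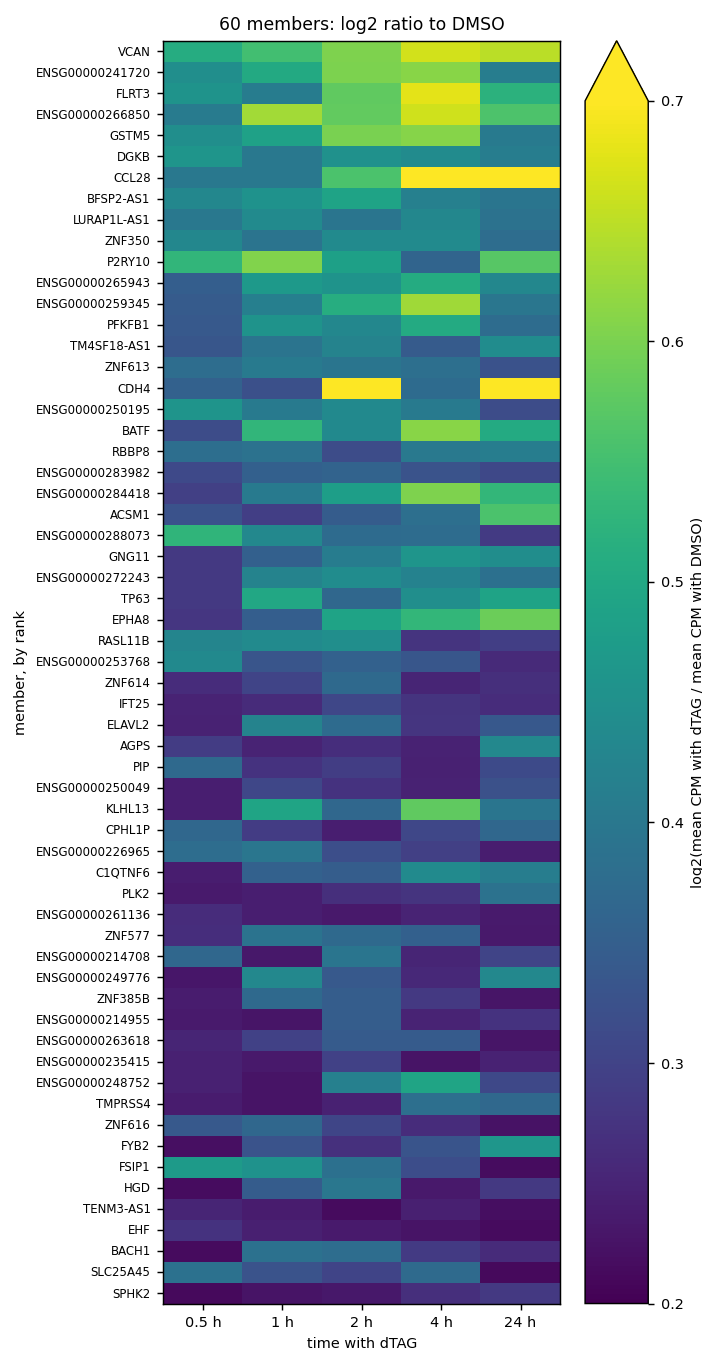
Log2 ratio of mean CPM with dTAG to mean CPM with DMSO for the 60 members (rows, by rank) at 5 times (columns), with colour from 0.2 to 0.7 and values above 0.7 in the brightest colour. Ratios are modest throughout, only CCL28 and CDH4 pass 0.7, and no single time is the peak for all members.

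Ratios were modest. The median over the members was 0.32, 0.39, 0.37, 0.37 and 0.37 after 0.5, 1, 2, 4 and 24 h, while the medians of the other genes lay within 0.01 of 0. The ratio at 0.5 h was a median of 73.2% of a member's highest ratio. The rule raises this share, because it chooses on the lowest of the 5 ratios. The lowest of the 5 ratios fell at 0.5 h for 23 members and at 24 h for 18. The highest fell at 4 h for 18 members and was otherwise spread evenly, with 10 or 11 members at each of the other times.

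In edgeR's quasi-likelihood test, which the rule did not use but which reads the same contrast, 29 members passed an adjusted p of 0.1 at 0.5 h, where 0.234% of all 26057 genes were called higher. After 1, 2, 4 and 24 h the counts were 39, 37, 36 and 36 against 0.514%, 0.43%, 0.526% and 0.564%, and all called members were higher. Among the 14148 genes with a mean count of 100 or more, 0.403%, 0.827%, 0.721%, 0.905% and 0.933% were called higher over the 5 times. With the replicate number as a block, 48 members were called at 0.5 h (background 1.12%), and 49, 52, 48 and 49 at the later times (1.49%, 1.3%, 1.55% and 1.43%), against 1.87%, 2.22%, 2.15%, 2.57% and 2.3% of the genes with a mean count of 100 or more. Calls at all 5 times were made for 23 members (0.111% of all genes), or 41 with the block (0.242%). No call at any time was made for 14 members, namely LURAP1L-AS1, CDH4, ENSG00000272243, IFT25, PIP, ENSG00000250049, ENSG00000261136, ENSG00000214955, ENSG00000235415, TMPRSS4, HGD, TENM3-AS1, SLC25A45 and SPHK2. With the block, the members without a call were CDH4, ENSG00000235415, TENM3-AS1, SLC25A45 and SPHK2. Every dTAG library lay above every DMSO library for 28 members (0.304% of 14148 genes), and the dTAG library was above its same-numbered DMSO library in 19 of 19 pairs for 49 members (1.24%). Without replicate 4 the counts of called members were 7, 17, 13, 19 and 10 at 0.5, 1, 2, 4 and 24 h. Of 26024 genes in that fit, 18, 78, 43, 64 and 40 were called in either direction. Without replicate 3 the members called were 9, 23, 25, 25 and 10, and of 26029 genes 14, 75, 68, 66 and 38 were called. Since the rule used these values, the counts describe the members and test nothing.

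Secreted and cell-surface proteins made up 8 members: VCAN, FLRT3, CCL28, CDH4, EPHA8, C1QTNF6, PIP and TMPRSS4. VCAN (hg38, chr5:83471618-83582303) encodes versican, a large proteoglycan of the extracellular matrix. VCAN gave 12.5, 11.1, 12.4 and 9.57 CPM in DMSO, 14.8, 15.5, 17.5 and 17.1 after 0.5 h and 14.9, 15.2, 18.7 and 17.9 after 1 h. It gave 17.4, 17.3, 16.3 and 18.4 CPM after 2 h, 16.2, 18.3, 19.1 and 18.8 after 4 h and 16.4, 19.5 and 17.7 after 24 h. Every dTAG library was above every DMSO library, and the ratio was highest at 4 h. FLRT3 (chr20:14322985-14337614), a leucine-rich repeat adhesion protein that binds latrophilins, had a lower level. In DMSO, FLRT3 was at 7.54, 7.54, 10.4 and 10.9 CPM, followed by 10.6, 11.4, 13.8 and 14.1 after 0.5 h and 10.8, 10.6, 14.7 and 12.2 after 1 h. Later values were 12.4, 14.5, 13.9 and 13.5 CPM after 2 h, 14.6, 12.8, 15.3 and 15.4 after 4 h and 10.2, 13.3 and 15.6 after 24 h. The dTAG library was higher in 19 of 19 pairs, but the groups overlapped, and replicates 3 and 4 lay above replicates 1 and 2 in DMSO too. CCL28 (chr5:43376645-43412391) encodes a chemokine of mucosal epithelia, including the lactating mammary gland. The levels of CCL28 were 40.3, 36.2, 45.9 and 46.7 CPM in DMSO, 51.9, 50.3, 59.7 and 61.2 after 0.5 h and 59.9, 48.1, 56.5 and 58.5 after 1 h. They were 60.5, 52.7, 63.5 and 72.3 CPM after 2 h, 77.6, 58.3, 70.5 and 72.8 after 4 h and 62.2, 69.6 and 76.9 after 24 h. The groups did not overlap, and its log2 ratio went from 0.40 at 0.5 and 1 h to 0.56 at 2 h and 0.72 at 4 and 24 h. C1QTNF6, a secreted protein of the C1q and TNF family, had ratios between 0.24 and 0.44. PIP, prolactin-induced protein, a secreted marker of apocrine differentiation, lay between 0.25 and 0.37, and the serine protease TMPRSS4 between 0.23 and 0.38.

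CDH4, which encodes R-cadherin, met the rule through a few libraries. CDH4 gave 15.1, 11.1, 8.23 and 9.17 CPM in DMSO, 20.1, 14.7, 9.63 and 11.4 after 0.5 h and 12.7, 11.7, 14.9 and 15.1 after 1 h. It gave 63.2, 8.87, 11.6 and 9.71 CPM after 2 h, 25.2, 9.95, 9.55 and 11.8 after 4 h and 11.9, 51.0 and 8.68 after 24 h. Replicate 1 at 2 h and replicate 3 at 24 h stood far above the rest, and the other libraries at those times lay within the range of the DMSO libraries. Only 15 of 19 pairs were higher with dTAG and no time was called by edgeR, with or without the block, or by DESeq2. Of the 29 other cadherin genes tested, PCDH7 was called higher at 4 h and CDH10 at 24 h, PCDH1 was called lower from 0.5 to 4 h, and no other was called. With the block, CDH10 and PCDH7 were higher from 1 to 24 h, CDH18 from 2 to 24 h and CDH17 at 1 h.

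Signalling proteins made up 7 members: DGKB, P2RY10, GNG11, RASL11B, PLK2, SPHK2 and FYB2. DGKB (chr7:14145049-14974777), a diacylglycerol kinase that ends diacylglycerol signalling, spans 830 kb. In DMSO, DGKB was at 17.4, 16.5, 20.8 and 18.4 CPM, followed by 26.4, 24.7, 25.7 and 23.8 after 0.5 h and 25.1, 20.5, 26.7 and 24.2 after 1 h. Later values were 24.9, 26.0, 24.4 and 24.6 CPM after 2 h, 22.6, 22.9, 28.1 and 25.6 after 4 h and 23.2, 26.3 and 23.3 after 24 h. Only replicate 2 at 1 h fell below the highest DMSO library. P2RY10 (chrX:78945332-78963727), a G protein-coupled receptor for lysophospholipids, was more variable. The levels of P2RY10 were 13.2, 11.2, 12.2 and 11.99 CPM in DMSO, 15.0, 14.9, 20.7 and 19.6 after 0.5 h and 20.4, 17.4, 17.8 and 18.5 after 1 h. They were 16.5, 15.5, 15.2 and 20.9 CPM after 2 h, 14.6, 18.0, 16.7 and 13.2 after 4 h and 14.01, 19.4 and 20.8 after 24 h. All dTAG libraries were above the DMSO libraries, with replicate 4 at 4 h nearly level with the highest of these. GNG11, a G protein gamma subunit, had a ratio of 0.28 at 0.5 h and 0.46 at 4 h, without overlap of the groups. PLK2, a polo-like kinase induced by stress and p53, went from 0.24 at 0.5 h to 0.39 at 24 h. FYB2, an adaptor of T cell receptor signalling that is also transcribed here, went from 0.22 to 0.46, RASL11B, a small Ras-like GTPase, lay between 0.28 and 0.45, and SPHK2, a sphingosine kinase, between 0.21 and 0.28.

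DNA- and RNA-binding proteins made up 12 members: TP63, EHF, BATF, BACH1, ZNF350, ZNF577, ZNF613, ZNF614, ZNF616, ZNF385B, ELAVL2 and RBBP8. Of these, 7 were called at all 5 times (11 with the block), against 0.111% (0.242%) of all genes. No overlap between dTAG and DMSO libraries was seen for 8, against 0.304% of 14148 genes. Among the 24 non-coding members, 9 were called at all 5 times (16 with the block) and 11 had no overlap. The rule used these values, and 5 of the 12 lie together on chromosome 19. TP63 (chr3:189631389-189897276) encodes p63, the p53-family factor of basal epithelium. TP63 gave 20.8, 20.03, 19.97 and 18.3 CPM in DMSO, 22.6, 24.2, 26.1 and 23.4 after 0.5 h and 32.5, 23.4, 26.7 and 29.4 after 1 h. It gave 27.6, 22.1, 25.8 and 26.5 CPM after 2 h, 28.4, 26.6, 27.4 and 25.5 after 4 h and 26.8, 29.5 and 27.0 after 24 h. The groups did not overlap. KRT5 and KRT14, markers of basal cells, had mean counts under 2 per library. Of the 9 other basal and myoepithelial genes tested, none was called higher at any time, and KRT15 was called lower at 0.5, 1, 4 and 24 h, and with the block at 2 h too. EHF (chr11:34621093-34663288), an ETS factor of epithelial cells, had ratios between 0.21 and 0.27, from a DMSO level of 411 ± 18.7 CPM (SD, n = 4). RBBP8, or CtIP, which acts in DNA end resection, lay between 0.32 and 0.41, from 333 ± 23.7 CPM. BACH1, a repressor of heme oxygenase and other oxidative stress genes, lay between 0.21 and 0.39, from 365 ± 18.8 CPM. BATF, an AP-1 family factor best known in lymphocytes, went from 0.32 to 0.61, and ELAVL2, a neuronal RNA-binding protein, from 0.25 to 0.42. ZNF385B lay between 0.23 and 0.37.

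**Figure D2:**
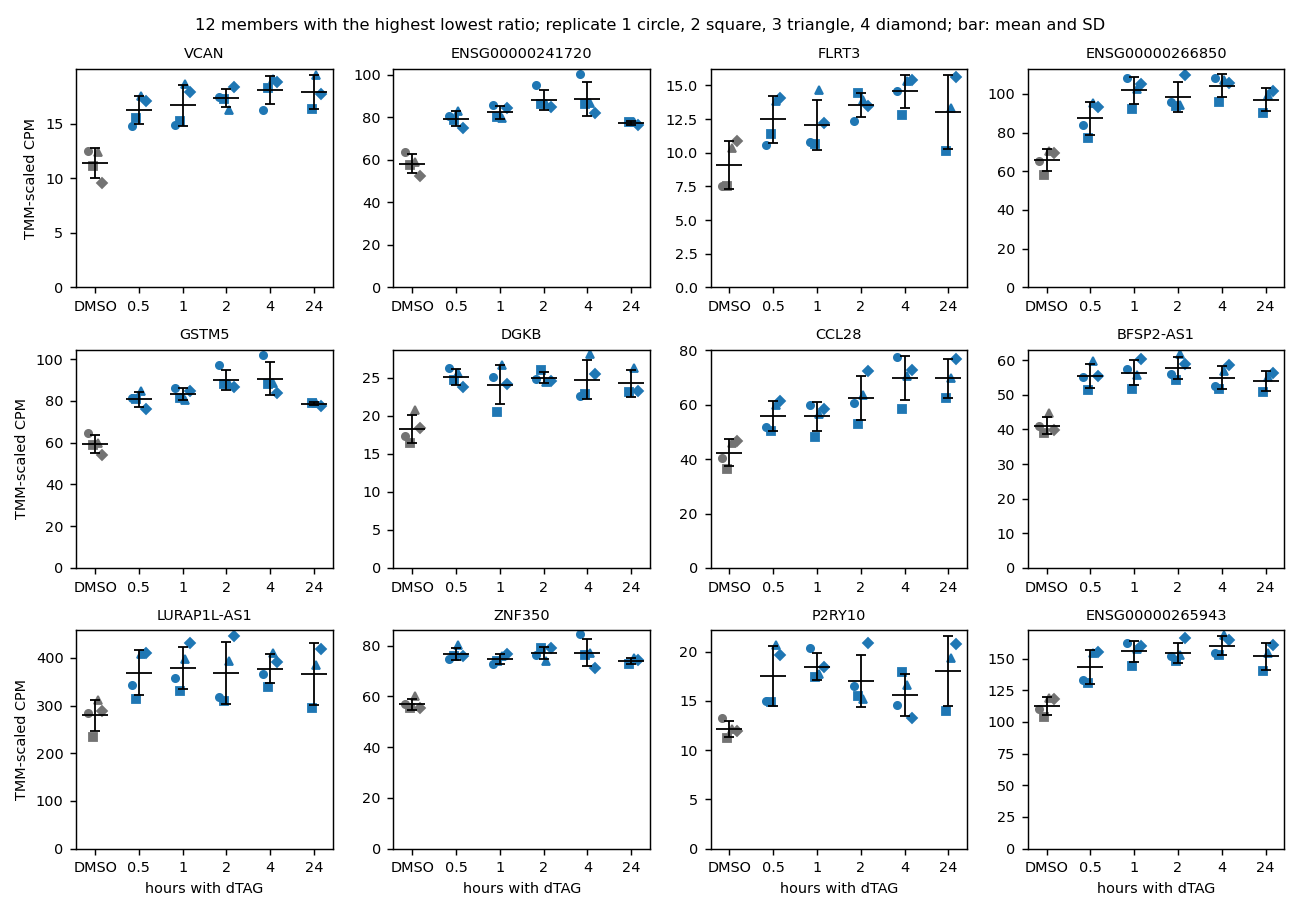
TMM-scaled CPM of the 12 members with the highest minimum ratio in DMSO (grey) and after 0.5 to 24 h with dTAG (blue), with a symbol per replicate number and bars for mean and SD (n = 4, n = 3 at 24 h). The dTAG libraries lie above the DMSO libraries in most panels, and FLRT3, DGKB and LURAP1L-AS1 are the panels with overlap.

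The zinc finger members ZNF577, ZNF613, ZNF350, ZNF614 and ZNF616 lie together on chromosome 19, between 51804816 and 52139938. They belong to the large family of KRAB-type zinc finger genes, which are arranged in clusters and mostly encode repressors. In DMSO, ZNF350 was at 56.8, 55.4, 59.98 and 55.4 CPM, followed by 74.8, 75.7, 80.3 and 76.0 after 0.5 h and 72.6, 73.8, 75.9 and 76.6 after 1 h. Later values were 76.4, 79.2, 74.1 and 79.0 CPM after 2 h, 84.5, 76.3, 76.9 and 71.2 after 4 h and 72.6, 74.99 and 74.2 after 24 h. The groups were well apart. The 335 kb between the ends of ZNF577 and ZNF616 hold 9 ZNF genes that were kept. For the 5 members among them, the rule itself required a positive ratio at all 5 times. The 4 that are not members also had a positive log2 fold change at all 5 times. Of the 14148 genes eligible by mean count, 2361 had 5 positive ratios. Of the 4 ZNF genes that are not members, ZNF432 was called at 4 of 5 times (0.31 ± 0.05 SE at 0.5 h, edgeR adjusted p = 0.00437) and ZNF649 at 2 h (0.34, adjusted p = 0.0193). ZNF615 and ZNF841 were called at no time without the block, with 0.19 and 0.40 at 0.5 h and adjusted p-values of 0.607 and 0.217. With the block, ZNF432 was called at all 5 times, ZNF649 also at 0.5 and 1 h, ZNF841 from 0.5 to 4 h and ZNF615 at 2 and 4 h. FPR3, a formyl peptide receptor whose gene overlaps ZNF577 by 21375 bases on the other strand, was called at all 5 times, with log2 fold changes from 0.69 to 0.88. Of the 16 kept genes in or overlapping this stretch, ENSG00000270248 (14.9 counts per library) was negative at all 5 times, from -0.56 to -0.21. ENSG00000275055 (39.4 counts) was negative at 0.5 and 1 h and ENSG00000260160 (147 counts) at 24 h. None of these was called, and the other genes, members included, were positive at all 5 times. Members in this locus are close neighbours, and their counts are not independent evidence of each other.

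Metabolic enzymes and carriers made up 6 members: GSTM5, PFKFB1, ACSM1, HGD, AGPS and SLC25A45. GSTM5 (chr1:109711780-109775428) encodes a glutathione S-transferase, an enzyme of detoxification, and lies on the same strand as ENSG00000241720, a long non-coding RNA wholly inside the annotated GSTM5 span. The levels of GSTM5 were 64.5, 59.0, 59.8 and 54.0 CPM in DMSO, 81.5, 80.9, 84.8 and 76.2 after 0.5 h and 86.2, 81.1, 80.4 and 84.8 after 1 h. They were 97.1, 88.0, 88.0 and 86.6 CPM after 2 h, 102, 88.0, 88.3 and 83.9 after 4 h and 79.1, 79.1 and 77.7 after 24 h. ENSG00000241720 gave 63.5, 57.5, 58.8 and 52.5 CPM in DMSO, 80.5, 78.5, 83.1 and 74.8 after 0.5 h and 85.8, 80.1, 79.5 and 84.2 after 1 h. It gave 95.0, 86.2, 86.4 and 84.8 CPM after 2 h, 100.1, 86.0, 86.9 and 81.8 after 4 h and 78.0, 77.6 and 76.3 after 24 h. The values of the pair are nearly the same in every library. The gene spans share 49.4 kb on the same strand, where a read can be counted for both, so the pair is best read as a single observation. GSTM5 had 833 counts per library on average and ENSG00000241720 had 818, so nearly all GSTM5 counts can come from the shared span. That span begins downstream of the annotated GSTM5 start. The counts therefore do not tell transcription from the GSTM5 start apart from that of the long non-coding RNA. GSTM3, on the other strand, had log2 fold changes of 0.04 to 0.24. Of the 13 other glutathione transferases tested, MGST1 was called higher at 1 h, GSTM3 at 4 h and MGST2 at 24 h, and none was called lower. With the block, MGST1 was higher from 1 to 4 h, GSTM3 at 2 and 4 h and MGST2 at 24 h. PFKFB1, a regulator of glycolysis, had ratios between 0.34 and 0.51 without overlap of the groups. AGPS, an enzyme of ether lipid synthesis, lay between 0.25 and 0.43, ACSM1, an acyl-CoA synthetase, between 0.29 and 0.56, HGD, homogentisate dioxygenase of tyrosine breakdown, between 0.22 and 0.40, and SLC25A45, a mitochondrial carrier, between 0.21 and 0.39. The remaining coding members were FSIP1, a sperm fibrous sheath interacting protein, KLHL13, a substrate adaptor of a cullin ubiquitin ligase, and IFT25, a component of intraflagellar transport.

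Non-coding transcripts made up 24 members, of which 19 are named only by identifier. ENSG00000266850 and ENSG00000265943, on chromosome 18, lie on the strand opposite RBBP8 and can share reads, since the former lies inside the latter. In DMSO, ENSG00000266850 was at 65.3, 57.9, 70.4 and 69.5 CPM, followed by 83.7, 77.0, 95.1 and 93.3 after 0.5 h and 108, 92.1, 102 and 105 after 1 h. Later values were 95.9, 93.5, 94.3 and 109.6 CPM after 2 h, 108, 95.6, 107 and 105 after 4 h and 90.2, 99.4 and 101 after 24 h. The levels of ENSG00000265943 were 109.9, 104, 119 and 118 CPM in DMSO, 133, 130.4, 155 and 156 after 0.5 h and 162, 144, 157 and 159.9 after 1 h. They were 152, 148, 153 and 166 CPM after 2 h, 154, 153, 169 and 164 after 4 h and 140.1, 154 and 161 after 24 h. All dTAG libraries were above all DMSO libraries for both. BFSP2-AS1 (chr3:133429269-133455776) runs antisense inside BFSP2. BFSP2-AS1 gave 41.0, 39.0, 44.7 and 39.8 CPM in DMSO, 55.0, 51.4, 59.8 and 55.6 after 0.5 h and 57.6, 51.8, 55.8 and 60.4 after 1 h. It gave 56.1, 54.4, 61.8 and 58.8 CPM after 2 h, 52.6, 51.6, 57.0 and 58.7 after 4 h and 50.7, 55.0 and 56.4 after 24 h. Groups again did not overlap. LURAP1L-AS1 (chr9:12698554-12814377) had 3781 counts per library on average. In DMSO, LURAP1L-AS1 was at 284, 234, 312 and 288 CPM, followed by 343, 315, 408 and 409.9 after 0.5 h and 357, 331, 397 and 431 after 1 h. Later values were 319, 309.8, 394 and 447 CPM after 2 h, 367, 339, 409 and 392 after 4 h and 295, 385 and 419 after 24 h. Replicate 2 was low in every group and replicates 3 and 4 mostly high, so the groups overlapped and no time was called without the block, while with it all 5 were called. TM4SF18-AS1, ENSG00000250195, ENSG00000283982, ENSG00000253768 and ENSG00000248752 were called at all 5 times. The others were ENSG00000259345, ENSG00000284418, ENSG00000288073, ENSG00000272243, ENSG00000250049, ENSG00000226965, ENSG00000261136, ENSG00000214708, ENSG00000249776, ENSG00000214955, ENSG00000263618, ENSG00000235415, TENM3-AS1 and CPHL1P.

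The members fall into 48 loci when members within 100 kb are joined, and 7 loci hold 19 of them. Beside GSTM5, RBBP8 and the zinc finger cluster these are CPHL1P with TM4SF18-AS1 on chromosome 3, ENSG00000250049 with ENSG00000249776 on chromosome 5, ENSG00000284418 with ENSG00000283982 and ELAVL2 on chromosome 9, and FSIP1 with ENSG00000261136 on chromosome 15. Reads on the same strand of overlapping genes can be counted for both. An overlap on the same strand was present for 13 members, and for 5 of them the partner had at least as many counts. These were ENSG00000241720 and ENSG00000266850, described above, RASL11B, ENSG00000214955 and ZNF616. RASL11B overlaps LINC01618 over 99.7% of its span. LINC01618 had 1548 counts per library against 175 and log2 fold changes from -0.09 to 0.14 with no call. ENSG00000214955 lies inside ENSG00000272657, which had 1829 counts against 138 and fold changes from -0.04 to 0.00. ZNF616 shares 35.0% of its span with ENSG00000267827, whose fold changes were 0.16 to 0.20.

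Counting was by strand, as the values show. For genes nested in a longer gene, the read density relative to the outer gene had a median of 0.916 on the same strand (609 pairs) and 0.058 on opposite strands (1441 pairs). The strand opposite a member could therefore be read separately. Opposite-strand partners that are not members numbered 34, for 25 members. Of these, 4, 5, 4, 5 and 3 were called higher after 0.5, 1, 2, 4 and 24 h, where 0.234%, 0.514%, 0.43%, 0.526% and 0.564% of all genes were. ZNF350-AS1 and LINC02694, which the rule left out by name, were among them at all 5 times, and of the 30 partners that the rule did not leave out, 2, 3, 2, 3 and 1 were called higher. With the block 5, 5, 6, 7 and 4 of the 34 were called higher, and 3, 3, 4, 5 and 2 of the 30. Of all genes 1.12%, 1.49%, 1.3%, 1.55% and 1.43% were. No partner was called lower by edgeR or DESeq2, and at an unadjusted p of 0.05 between 0 and 2 were lower in edgeR. The partners higher at that unadjusted p and the share of all genes are not given here. MACROD2, which holds FLRT3 on its other strand, had log2 fold changes from -0.12 to 0.06 while FLRT3 had 0.40 to 0.66. LURAP1L, with 11575 counts per library, had -0.02 to 0.03 while LURAP1L-AS1 had 0.39 to 0.44. BFSP2 was called at 0.5 h (0.34, adjusted p = 0.00437) and 1 h (0.23, adjusted p = 0.0632) and was at 0.01 at 24 h, while BFSP2-AS1 was at 0.39. LINC02694, opposite ENSG00000259345, was called at all 5 times with fold changes from 0.40 to 0.50. The differences within pairs were not tested.

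The same measure was then read in libraries that had no part in choosing. The rule was applied without the libraries of a replicate number, and the 60 genes it chose were read in that number's dTAG and DMSO libraries. It chose again 45, 46, 49 and 44 of the 60 members without replicates 1, 2, 3 and 4. Each run keeps the libraries of the other numbers, which also chose the 60, so much of this overlap is built in. The runs also share libraries with each other, so counts of runs per member are not independent. In the left-out libraries, between 49 and 58 of the 60 chosen genes were above DMSO at each time, or 81.7% to 96.7%, against 42.5% to 56.0% of the other genes. Medians of the left-out log2 ratios lay between 0.24 and 0.43, against 0.30 to 0.42 in the choosing libraries and -0.02 to 0.02 in the other genes. Above DMSO at all times of the left-out number were 46, 51, 51 and 45 of the 60 genes against 14.4% to 20.5% of the others. Within a number all times share a DMSO library, so the times are again not independent. By member, 32 were chosen in all 4 runs, including VCAN, FLRT3, CCL28, DGKB, P2RY10, TP63, EPHA8 and PLK2, and TENM3-AS1 in none. CDH4, ENSG00000214955, ENSG00000235415, TMPRSS4, HGD, SLC25A45 and SPHK2 were chosen in 1 run.

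**Figure D3:**
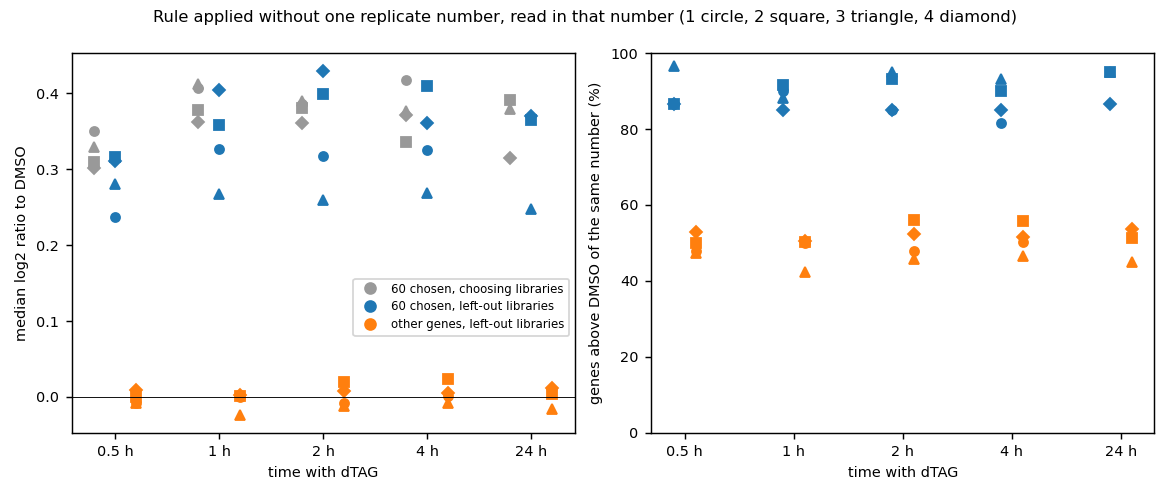
Left, median log2 ratio to DMSO of the 60 genes chosen without a replicate number in the choosing libraries (grey) and in the left-out libraries (blue), with the other eligible genes in the left-out libraries (orange). Right, the percentage of genes above DMSO in the left-out libraries, with a symbol per replicate number. The chosen genes lie between 81.7% and 96.7% and the others between 42.5% and 56.0%.

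Contrasts among the dTAG groups leave DMSO out, and they ask whether a member kept the level it had at 0.5 h. The rule bounds all times from below but not the change between them, though the same libraries entered it. From 0.5 to 24 h, 3 members changed at an adjusted p of 0.1: EPHA8 and PLK2 rose (1.2% of all genes were called higher) and FSIP1 fell (0.791% lower). With the block, 10 rose (background 3.47%) and 3 fell (2.88%). From 0.5 to 4 h, ENSG00000248752 alone rose (0.579% higher, 0.292% lower). With the block 13 rose (2.73%) and 1 fell (1.42%). Any difference among the 5 dTAG times was called for FSIP1 and ENSG00000248752 (1.97% of all genes) and, with the block, for 16 members (7.71%). Without replicate 2, 3 or 4 no member was called from 0.5 to 24 h, and without replicate 1, 3 or 4 none from 0.5 to 4 h. In those fits 5 to 14 and 12 to 13 members had an unadjusted p under 0.05 in edgeR. The shares of all genes at that p were 7.02% to 8.66% and 6.22% to 8.43%. At an unadjusted p of 0.05 in all libraries, 11 members differed between 0.5 and 24 h and 15 between 0.5 and 4 h (10.7% and 8.76% of all genes).

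EPHA8, an ephrin receptor tyrosine kinase, was among the late risers. The levels of EPHA8 were 14.8, 13.0, 16.3 and 13.7 CPM in DMSO, 18.9, 17.0, 18.3 and 16.1 after 0.5 h and 19.8, 18.0, 18.4 and 17.5 after 1 h. They were 18.7, 21.3, 21.2 and 19.997 CPM after 2 h, 19.4, 19.5, 21.6 and 23.1 after 4 h and 22.4, 21.7 and 21.1 after 24 h. The 24 h libraries were above all 0.5 h libraries. The log2 change from 0.5 to 24 h was 0.31 ± 0.08 (SE; edgeR adjusted p = 0.0644, 0.0222 with the block), higher in 3 of 3 pairs. PLK2 gave 232, 217, 228 and 217 CPM in DMSO, 261, 267, 267 and 259 after 0.5 h and 277, 259.6, 259 and 262 after 1 h. It gave 277, 271, 261 and 268 CPM after 2 h, 284, 274, 272 and 251 after 4 h and 296, 286 and 296 after 24 h. PLK2 at 24 h was also above all earlier libraries, with a change of 0.15 ± 0.04 (adjusted p = 0.0835, 0.00708 with the block), higher in 3 of 3 pairs. FSIP1 (chr15:39588357-39782841) went the other way. In DMSO, FSIP1 was at 162, 150.2, 167 and 145 CPM, followed by 206, 222, 223 and 216 after 0.5 h and 209, 202, 215 and 229.9 after 1 h. Later values were 197, 197, 203 and 218 CPM after 2 h, 189.6, 195, 197 and 197 after 4 h and 185, 178 and 181 after 24 h. Its 24 h libraries lay below all 0.5 h libraries yet above all DMSO libraries. The change was -0.26 ± 0.05 (adjusted p = 0.0179, 0.00232 with the block), lower in 3 of 3 pairs, and -0.15 ± 0.05 from 0.5 to 4 h (adjusted p = 0.206, 0.0684 with the block).

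ENSG00000248752, a long non-coding RNA of 1035 kb on chromosome 5, was highest at 4 h. The levels of ENSG00000248752 were 31.6, 29.6, 32.1 and 31.7 CPM in DMSO, 37.6, 34.9, 39.0 and 36.8 after 0.5 h and 36.3, 35.7, 36.5 and 37.7 after 1 h. They were 40.5, 42.4, 40.9 and 43.1 CPM after 2 h, 43.3, 40.8, 47.9 and 43.995 after 4 h and 36.2, 38.3 and 41.6 after 24 h. Its 4 h libraries were above all 0.5 h libraries, by 0.25 ± 0.05 (adjusted p = 0.0365, 0.00388 with the block), higher in 4 of 4 pairs. With the block, CCL28 rose by 0.31 ± 0.05 from 0.5 to 24 h (adjusted p = 0.00137) and 0.30 ± 0.05 to 4 h (adjusted p = 0.00198). Without it, the adjusted p-values were 0.235 and 0.272. FYB2 (0.25 ± 0.05, adjusted p = 0.00254) and ENSG00000284418 (0.24 ± 0.04, adjusted p = 0.00289) also rose to 24 h with the block, and so did GNG11, C1QTNF6, KLHL13, TM4SF18-AS1 and ENSG00000266850. ENSG00000288073 (-0.24 ± 0.07, adjusted p = 0.0516) and ENSG00000253768 (-0.18 ± 0.05, adjusted p = 0.0597) fell with the block. Each of these 24 h changes had the same direction in 3 of 3 pairs. For ENSG00000284418, replicate 2 at 0.5 h (278 CPM) stood below the other libraries of its group.

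**Figure D4:**
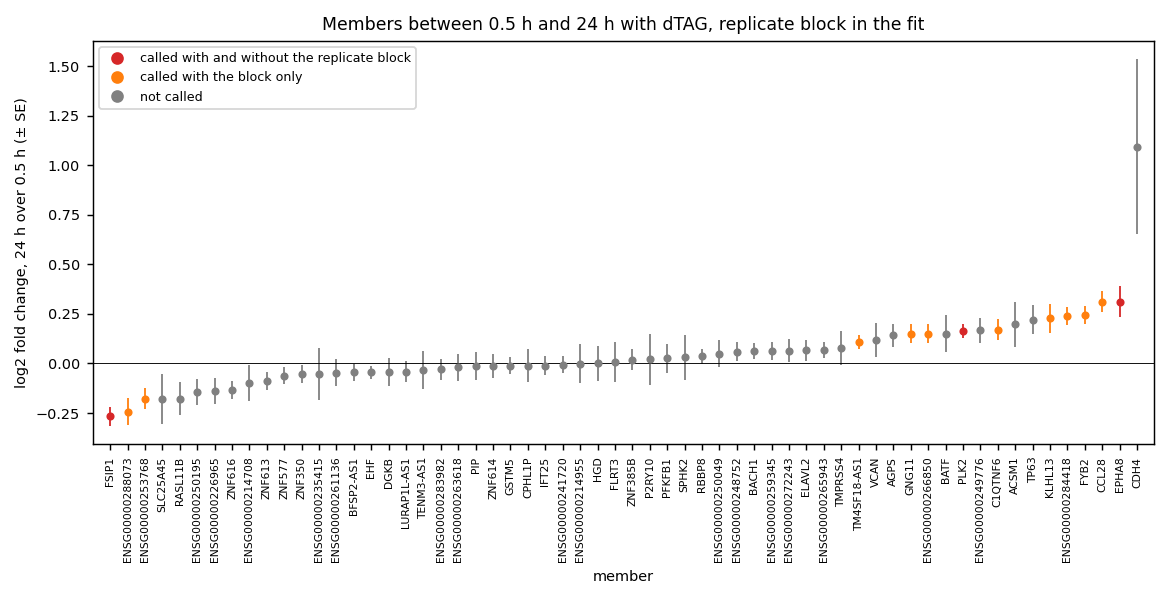
Log2 fold change of each member from 0.5 h to 24 h with dTAG, from the edgeR fit with the replicate number as a block, with bars for the standard error. FSIP1, PLK2 and EPHA8 (red) were called with and without the block, 10 more with the block only (orange), and CDH4 has the largest value and the widest bar.

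Genes near the members offer a reading that the rule did not use directly. Within 100 kb of a member lie 133 kept genes that are not members and do not overlap one. The nearest members of these genes number 39. At 0.5 h 2 of the 133 genes were called higher, or 1.5%, against 0.116% of the genes elsewhere. After 1, 2, 4 and 24 h the counts were 6, 8, 7 and 3, or 4.51%, 6.02%, 5.26% and 2.26% against 0.344%, 0.259%, 0.363% and 0.418%. With the block, 7, 11, 11, 16 and 7 were higher, or 5.26%, 8.27%, 8.27%, 12% and 5.26%. Of the genes elsewhere, 0.912%, 1.27%, 1.07%, 1.31% and 1.22% were. Without the block none of the neighbours was called lower by edgeR or DESeq2. At an unadjusted p of 0.05 in edgeR, 3, 6, 1, 3 and 3 were lower and 23, 20, 22, 29 and 18 higher. No share of all genes at that unadjusted p is given here. With the block 2, 1, 0, 0 and 1 neighbours were called lower, against 1.36%, 1.76%, 1.14%, 0.955% and 1.23% of the genes elsewhere. Some of the neighbours are genes that the rule left out by name. Without those, 1, 4, 6, 5 and 1 of 125 were called higher. Leaving out a replicate number gave 0 to 4, 2 to 5, 4 to 5, 2 to 6 and 0 to 3 over the 5 times. The lowest counts came without replicate 3 or 4 at 0.5 h, replicate 4 at 1 and 24 h, replicate 2 or 4 at 2 h and replicate 3 at 4 h.

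The neighbours called at 2 or more times were 6, in 5 loci. FPR1, a formyl peptide receptor 0.7 kb from ZNF577 and left out by the rule, was called at all 5 times with fold changes from 0.85 to 1.08. LINC01768, 52.9 kb from GSTM5 and also left out, was called at 4, with 0.75 ± 0.10 at 2 h (adjusted p = 0.000774). ZNF432 is described above. HMGCS1, the cholesterol synthesis enzyme 63.1 kb from CCL28, was called from 1 to 4 h, with 0.51 ± 0.04 at 2 h (adjusted p = 2.7e-06), but was at 0.07 at 24 h (adjusted p = 0.842), when CCL28 was at 0.72. ZBTB40, 32.3 kb from EPHA8, was called from 1 to 4 h, with 0.23 ± 0.04 at 4 h (adjusted p = 0.00283). ENSG00000259390, near FSIP1, was called at 1 and 2 h from 35.2 counts per library.

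**Figure D5:**
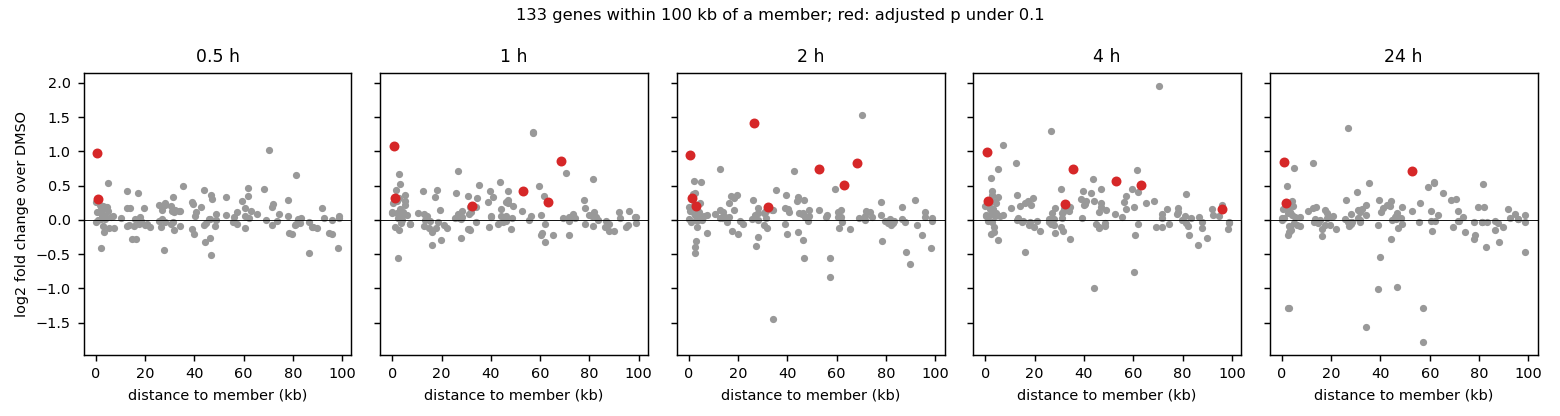
Log2 fold change over DMSO against distance to the nearest member in kb for 133 neighbours, with a panel per time, genes with an edgeR adjusted p under 0.1 in red. All red points lie above 0.

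Other gene lists, none of which holds a member, were also read. Of 8 GATA factors and FOG partners kept, GATA3, a luminal GATA factor, was called lower from 0.5 to 4 h, with -0.22 at 0.5 h (adjusted p = 0.00112), and none was called higher. With the block, TRPS1 was called higher at all 5 times, GATA4 at 0.5 h and GATA6 at 24 h, GATA3 remained lower from 0.5 to 4 h and ZFPM2 was called lower at 24 h. Among 38 ABC transporters, ABCA4 was called higher from 1 to 24 h, ABCC5 lower at 0.5 h, ABCA3 and ABCC3 lower at 2 h and ABCC12 lower at 2 and 4 h. With the block, 0, 3, 2, 3 and 2 were called higher and 3, 3, 5, 3 and 2 lower over the 5 times. Of 5 luminal progenitor and alveolar genes, ELF5, an ETS factor of alveolar cells 95.9 kb from EHF, was called higher at 4 h (0.16, adjusted p = 0.0843), with the block also at 1 h, and no other at any time.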

How the data were processed

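The authors deposited counts of PRO-seq reads per gene. Per the labels and methods, they trimmed adapters with cutadapt 1.8.1, removed duplicates by molecular identifier, removed ribosomal reads with Bowtie2 2.4.4, aligned to hg38 and used SAMtools 1.9. The use of strand was read from the values.

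From these counts, edgeR 4.0.16 (R 4.3.3, limma 3.58.1) fitted all 23 libraries by group with TMM factors and filterByExpr (minimum count 10, total 15), which kept 26057 genes. Quasi-likelihood tests were adjusted by Benjamini-Hochberg over all kept genes, with calls at 0.1. Standard errors are the fold change over the root of F. Same-numbered libraries shared a harvest. Their deviations from group means correlated at a mean of 0.482 over 55 pairs (lowest -0.019), against -0.139 between numbers, and a replicate block was the alternative. DESeq2 1.42.0, other scalings and filters, and left-out replicates were also tried. The edgeR fit without the block was also run on simulated counts that held no replicate effect. That check does not cover the blocked fit or DESeq2.

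All members were named, the 12 of highest minimum ratio with every library. Values for CDH4 and TP63, and the opposite-strand partners and FPR3, were added after they were seen. Members and lists were chosen with earlier results of these data known. Positions are GENCODE v44 on hg38. Replicate 1 at 24 h was not analysed here.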

Additional observations from a re-analysis of the deposited data

Results flagged for a closer look

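In 300 groups of 4 libraries, 5 groups for each of the 60 members, Dixon's test set 16 libraries apart, where chance gives about 1 in 20 groups. High values were found for GSTM5 and the overlapping ENSG00000241720 in replicate 1 at 2 h (97.1 and 95.0 CPM), ENSG00000266850 in replicate 4 at 2 h (109.6 CPM), PLK2 in replicate 1 at 1 h (277 CPM), CDH4 in replicate 1 at 2 h (63.2 CPM) and 4 h (25.2 CPM), KLHL13 in replicate 1 at 4 h (155 CPM), ENSG00000261136 in replicate 4 at 0.5 h (36.1 CPM) and ENSG00000235415 in replicate 3 at 1 h (12.1 CPM). The time of KLHL13's high library is also that of its highest ratio. Low values were found for PFKFB1 in replicate 1 at 1 h (20.8 CPM), ENSG00000283982 in replicate 1 at 2 h (36.4 CPM), ENSG00000284418 (278 CPM), PIP (106 CPM) and ZNF616 (48.6 CPM) in replicate 2 at 0.5 h, ZNF385B in replicate 2 at 4 h (68.1 CPM) and HGD in replicate 1 of DMSO (11.1 CPM).

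The effect over DMSO differed between times for 4 members by edgeR's adjusted test of the difference. From 0.5 to 24 h the log2 change was 0.31 for EPHA8, 0.15 for PLK2 and -0.26 for FSIP1, and from 0.5 to 4 h it was 0.25 for ENSG00000248752.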

How the results depend on the processing

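Counts of all genes called were 124, 325, 191, 217 and 225 at 0.5, 1, 2, 4 and 24 h. With the replicate block they were 645, 846, 634, 650 and 691, with 48 members at 0.5 h, 9, 12, 16 and 8 neighbours at 0.5, 1, 4 and 24 h, and 16, 13 and 14 members for any dTAG time, 24 against 0.5 h and 4 against 0.5 h. Without a filter they were 47, 163, 114, 127 and 126, with 19 members at 0.5 h, 5 neighbours at 2 h and 0, 1 and 0 members between dTAG times. Between those times 14, 11 and 15 members had an unadjusted p under 0.05 in edgeR, against 5.13%, 6.19% and 5.13% of all genes. Scaled by total counts only, the counts of all genes were 30, 142, 81, 87 and 110, with 11, 25 and 23 members at 0.5, 1 and 4 h. There were 5 and 4 neighbours at 2 and 4 h and 0, 0 and 0 members between dTAG times. Between those times 11, 13 and 12 members had an unadjusted p under 0.05, against 7.27%, 8.81% and 6.13% of all genes. DESeq2 called 261 genes at 0.5 h and 344 at 24 h, and 7 and 7 members for any dTAG time and 4 against 0.5 h. Within 50 kb, 3, 5 and 4 neighbours were called at 1, 2 and 4 h. With a mean count of 50 or more, the rule chose 38 members again. The causes were not tested.

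Leaving out a replicate gave 14 to 88, 75 to 196, 43 to 155, 64 to 182 and 38 to 233 genes, 7 to 23, 17 to 31, 13 to 33, 19 to 36 and 10 to 31 members, and 0 to 4, 2 to 5, 4 to 5, 2 to 6 and 0 to 3 neighbours over the 5 times. Between dTAG times it gave 0 to 4, 0 to 4 and 0 to 2 members, and the rule chose 44 to 49 again. The lowest member count, 22 in a library, limits the weakest members.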
